A study of Mus musculus with 110 samples.

Results

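The genes described here encode the proteins of the cytosolic ribosome. They were taken from the symbols of the gene count table: every symbol of the form Rpl or Rps with a number and at most a short suffix, plus Rplp0, Rplp1, Rplp2 and Rpsa, without Rpl22 and without symbols that carry a pseudogene suffix. This gave 76 genes of 24060 in the table, 45 of the large subunit and 31 of the small subunit. They lie on 19 chromosomes, and none was listed at 0 in any of the 110 libraries.

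Each cytosolic ribosome holds a copy of nearly every one of these proteins on a scaffold of ribosomal RNA, the small subunit reading the mRNA and the large subunit joining amino acids. Vertebrate ribosomal protein mRNAs begin with a run of pyrimidines at the cap, the TOP motif, through which mTOR signalling sets how well they are translated as a group. In brain, these mRNAs are found in cell bodies and also in neuronal and glial processes, and many of them have processed pseudogene copies elsewhere in the genome.

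The study used R6/2 mice, a transgenic model of Huntington's disease, with adeno-associated viruses that express a zinc finger protein (ZFP), a designed repressor of the mutant huntingtin gene, or its Delta control in astrocytes or neurons. Ribosome-bound mRNA was pulled down by an HA-tagged ribosomal protein (RiboTag), giving an IP library beside an Input library of the whole tissue extract. The 4 sets were named MG, hSyn, n_ZFP_a_Rpl and n_ZFP_n_Rpl, of which MG and n_ZFP_a_Rpl were astrocyte pulldowns and hSyn and n_ZFP_n_Rpl neuron pulldowns, with MG present as IP only. Each set held NCAR mice with Delta (ND), NCAR mice with ZFP (NZ), R6/2 mice with Delta (RD) and R6/2 mice with ZFP (RZ). Every group had 4 libraries, except 5 in the hSyn ND groups and 3 in the hSyn RD and n_ZFP_a_Rpl RD groups, in IP and in Input alike. The strain entry was R6/2 for all samples, NCAR included, and the labels gave no age, no meaning of NCAR and no tagged protein; which cells carried the ZFP in each set, and whether libraries of a group came from separate mice, were not given in the sources used here. All p-values therefore measure the spread between libraries of a group.

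Libraries held between 26.4 M and 72.6 M counts assigned to genes. Summed levels of 8 astrocyte markers reached 11636 to 33647 counts per M library counts (CPM) in MG IP and 11239 to 22495 in n_ZFP_a_Rpl IP, against 2400 to 8709 in hSyn IP and 1452 to 5084 in n_ZFP_n_Rpl IP. The pulldowns labelled as astrocyte thus carried the higher astrocyte marker levels. Summed levels of 8 neuron markers overlapped between them, from 4225 to 6289 CPM in the astrocyte pulldowns and from 5426 to 9178 in the neuron pulldowns, so neuronal mRNA was not absent from the astrocyte IP libraries. The median neuron marker sum was 5237 CPM in n_ZFP_a_Rpl IP and 4825 in its Input, so neuron markers were not depleted there. The median astrocyte marker sum was 5109 CPM in hSyn IP and 5891 in its Input, with overlap, and 2955 and 5945 CPM in n_ZFP_n_Rpl. Microglia markers summed to 6.14 to 27.8 CPM in the IP libraries and to 335 to 1563 in the Input libraries. Levels are CPM scaled by TMM factors computed separately for each set and fraction, and values set beside each other across sets are on separately normalised scales. In these bulk libraries, fewer cells of a type and less RNA per cell cannot be told apart.

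The table of RefSeq promoters used here (GRCm38.p6) held 56 of the 76 genes, with 65 starts in all. Sequences of 15 bases on each side of the listed start are shown for a selection of the genes named below. Rplp1 had no entry. The longest run of C and T is in capitals, because a pyrimidine run at the cap defines TOP mRNAs. In Rpl31, Rpl4, Rpl5 and Rps3a1 the run opens the window and ends before the listed start. The first 5 have runs of 10 or more and the last 4 have runs of 5 or fewer. Runs in between, such as 6 in Rps2 and 7 in Rps25, are not shown. Coordinates are followed by the strand, and each sequence is written along the gene.

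Rpl31 (chr1:39367836-39367865, plus): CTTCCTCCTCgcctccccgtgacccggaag
Rplp2 (chr7:141447636-141447665, plus): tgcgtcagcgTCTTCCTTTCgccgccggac
Rps6 (chr4:86857353-86857382, minus): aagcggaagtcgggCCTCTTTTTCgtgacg
Rpl4 (chr9:64173372-64173401, plus): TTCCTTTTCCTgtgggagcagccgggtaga
Rps18 (chr17:33955651-33955680, minus): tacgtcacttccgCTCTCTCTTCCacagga
Rplp0 (chr5:115559452-115559481, plus): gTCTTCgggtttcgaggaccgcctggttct
Rpl5 (chr5:107900513-107900542, plus): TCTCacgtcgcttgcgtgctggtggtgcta
Rpl41 (chr10:128549154-128549183, minus): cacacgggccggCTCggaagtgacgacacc
Rps3a1 (chr3:86142654-86142683, minus): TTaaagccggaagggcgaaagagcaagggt

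A run of at least 8 pyrimidines on the gene's strand lay within this 30-base window in 26 of 65 starts (40%), against 3943 of 32851 starts of all genes (12%). The median longest run was 6 bases in the family and 4 in all genes. The 6-base motif CTTTCC, searched on both strands from 250 bases before to 50 bases after the start and able to overlap a pyrimidine run, was found in 32 starts (49.2%) against 8725 of all starts (26.6%). The motif CCGGAAG, the core bound by ETS factors, searched in the same way, was found in 25 starts (38.5%) against 2910 (8.86%). A match is a description of these letters and not a site shown to be used, and a listed start can differ from the cap in this tissue.

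Together the 76 genes took a small share of the assigned counts in every library, and the share was set first by the fraction. It was 0.354% to 0.453% in hSyn Input, 0.283% to 0.361% in n_ZFP_a_Rpl Input and 0.274% to 0.365% in n_ZFP_n_Rpl Input. In the IP libraries it was 0.158% to 0.213% in MG, 0.191% to 0.264% in hSyn, 0.144% to 0.184% in n_ZFP_a_Rpl and 0.181% to 0.219% in n_ZFP_n_Rpl. No IP library reached the lowest Input library of its own set. As shares of all counts, the RD libraries lay above all ND libraries of the same set and fraction in every case but n_ZFP_n_Rpl IP, where the lowest RD and the highest ND library were both at 0.205%. In n_ZFP_a_Rpl Input, for example, the share was 0.283% to 0.300% in ND and 0.343% to 0.361% in RD. After TMM scaling the MG IP, hSyn IP and n_ZFP_a_Rpl Input groups still did not overlap. In hSyn IP they barely parted, at up to 0.21823% in ND and from 0.21828% in RD. The groups overlapped in hSyn Input, n_ZFP_n_Rpl Input, n_ZFP_n_Rpl IP and n_ZFP_a_Rpl IP. In n_ZFP_a_Rpl IP the share was 0.150% to 0.176% in the ND libraries against 0.158% to 0.166% in the RD libraries. TMM factors moved with genotype, from 0.919 to 0.988 in the ND groups and from 1.01 to 1.10 in the RD groups.

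**Figure D1:**
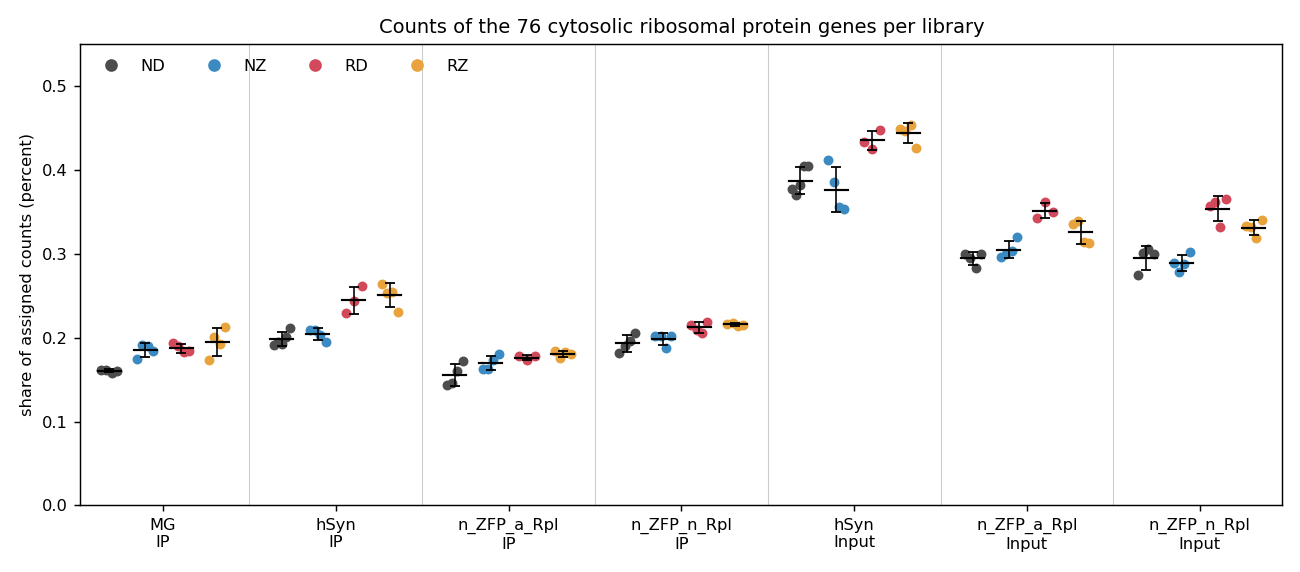
Share of assigned counts in the 76 ribosomal protein genes (percent, vertical axis) for each library, by set, fraction and condition; points are libraries, bars group means and whiskers 1 SD. Input libraries of a set lie above its IP libraries, and in hSyn IP the RD and RZ libraries (0.229% to 0.264%) lie above the ND and NZ libraries (0.191% to 0.211%).

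By mean level over all libraries, 4 genes were below 1 CPM, 30 between 1 and 10 CPM, 37 between 10 and 100 CPM and 5 at or above 100 CPM, namely Rpl4, Rpl8, Rps3, Rpl13a and Rplp1. RefSeq lists 314 pseudogenes named after 61 of the 76 genes, and reads shared with such near-identical copies make the counts uncertain. Genes between 1 and 10 CPM had a median of 4 named pseudogenes and those at or above 100 CPM a median of 0. Rpl31 had 23, Rps19 13, Rps2 12, Rps18 5, Rpl3 2, Rplp1 1 and Rpl4 and Rps3a1 0.

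Ribosomal protein mRNAs were lower in the pulldown than in the tissue extract in all 3 sets with both fractions, and the size of the fall differed from gene to gene. In a fit of IP against Input within each set, 69 of 76 genes were lower in hSyn IP, 69 of 76 in n_ZFP_a_Rpl IP and 62 of 76 in n_ZFP_n_Rpl IP (edgeR's quasi-likelihood test, Benjamini-Hochberg adjusted p under 0.05). Of all genes tested, 39.5%, 42.8% and 40.7% were lower in the same comparisons, and 39.2%, 42.1% and 42.6% were higher. The median log2 difference of IP minus Input over the ribosomal protein genes was -0.83, -0.93 and -0.53 in hSyn, n_ZFP_a_Rpl and n_ZFP_n_Rpl, against -0.01, -0.01 and 0.02 over all genes. The same 62 genes were lower in all 3 sets, and how many of all genes were lower in all 3 was not counted. Small subunit genes had medians of -0.93, -0.97 and -0.63 and large subunit genes of -0.72, -0.91 and -0.46, a split that was not tested.

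Among genes with a mean of at least 5 CPM, Rps20 had the largest fall in hSyn and Rplp1 the largest in both n_ZFP sets. Rps20, a protein of the head of the small subunit, ranged from 12.2 to 20 CPM in hSyn IP and from 36.3 to 51.2 CPM in hSyn Input, without overlap. Its log2 difference was -1.32 ± 0.05 (SE) in hSyn, -1.27 ± 0.03 in n_ZFP_a_Rpl and -0.95 ± 0.04 in n_ZFP_n_Rpl. Rplp1, which with Rplp2 forms the acidic stalk that recruits elongation factors, had differences of -1.19 ± 0.04, -1.79 ± 0.04 and -1.54 ± 0.04 in the same order. Rplp0, the base of that stalk, had smaller ones, at -0.72 ± 0.03, -0.48 ± 0.02 and -0.40 ± 0.03, and Rplp2 had -0.49 ± 0.04, -0.62 ± 0.05 and -0.33 ± 0.04. The mRNAs of the stalk proteins were thus lower in IP by differences of unequal size, which were not tested against each other. Rplp1 also moved with treatment in the n_ZFP sets, as described below. The IP minus Input differences averaged Delta and ZFP libraries, and the log2 fall of Rplp1 with ZFP was larger in IP than in Input. Its rank in those sets was not examined in Delta libraries alone. Rps21, Rps24, Rps28 and Rpl37 had differences between -0.74 ± 0.04 and -1.57 ± 0.05 over the 3 sets.

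Several genes stood near 0 in the same fits, and those named next were chosen after their values were seen. Rpl15, a large subunit protein, had log2 differences of -0.08 ± 0.05, -0.08 ± 0.05 and 0.07 ± 0.04 (adjusted p = 0.12, 0.12 and 0.13, edgeR). It ranged from 35.2 to 54.2 CPM in hSyn IP and from 41.1 to 61.3 CPM in hSyn Input, with overlap. Rpl7 was lower by -0.24 ± 0.03 in hSyn and -0.16 ± 0.02 in n_ZFP_a_Rpl and had 0.01 ± 0.02 in n_ZFP_n_Rpl (adjusted p = 0.68). Rpl41, which encodes the shortest protein of the ribosome, differed by set: -0.27 ± 0.03 in hSyn, -1.13 ± 0.04 in n_ZFP_a_Rpl and -0.05 ± 0.03 in n_ZFP_n_Rpl (adjusted p = 0.14). Rpl4, whose protein lines the exit tunnel, had -0.36 ± 0.02, -0.37 ± 0.02 and -0.14 ± 0.02. Genes higher in IP were Rpl26 in n_ZFP_a_Rpl (1.11 ± 0.17) and n_ZFP_n_Rpl (0.77 ± 0.18), at under 1 CPM, and Rpl34 in n_ZFP_n_Rpl (0.29 ± 0.09). Rpl3, Rps2 and Rps18 passed in no set, with standard errors of 0.49 or more in these fits, which did not pair libraries. They are not counted among the genes near 0. In both n_ZFP sets each IP library held less of them than the Input library of its condition and number. For Rps2 in n_ZFP_n_Rpl ND 2, for example, these were 33.3 and 68.8 CPM. Their levels are described further on.

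**Figure D2:**
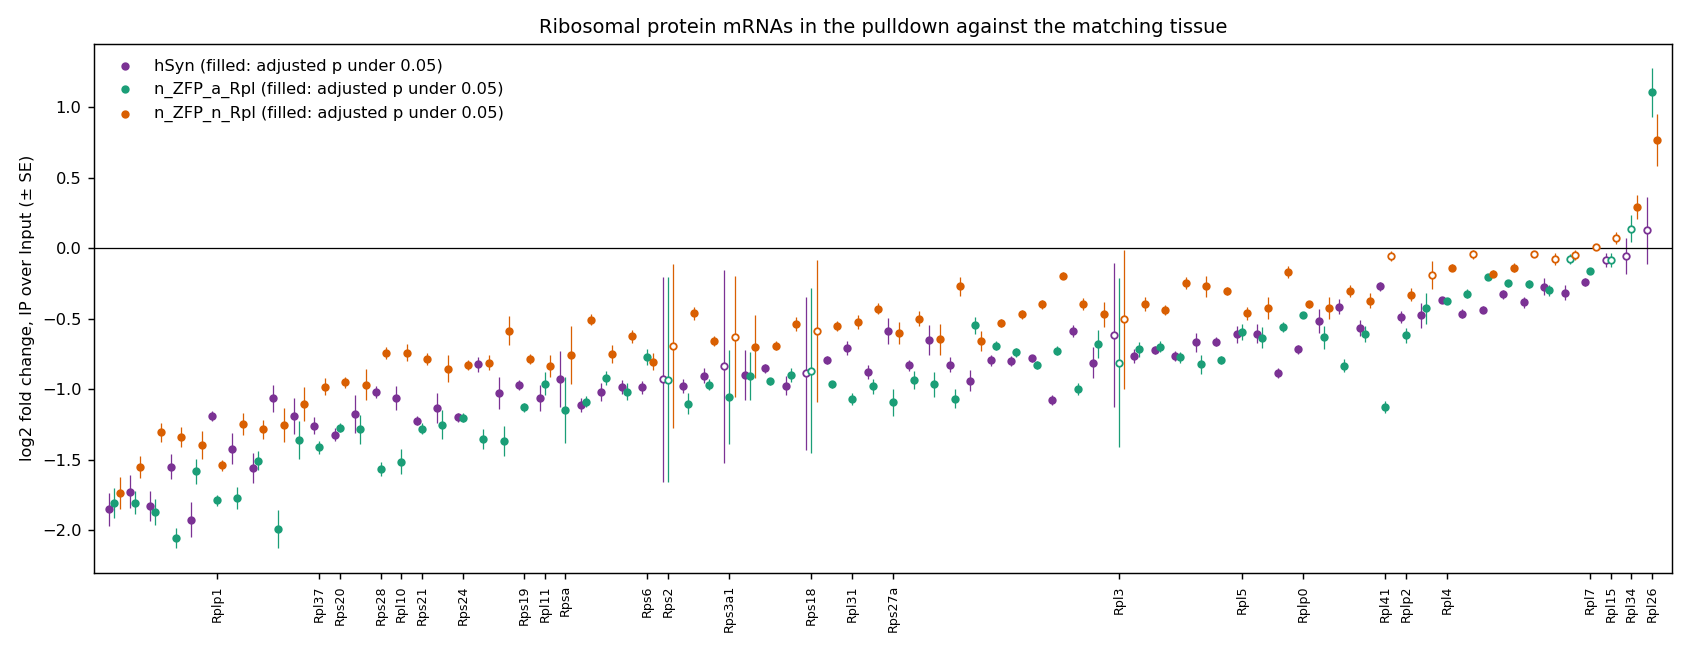
Log2 difference of IP minus Input for each of the 76 genes, with 1 standard error, in the 3 sets that have both fractions; filled points have an adjusted p under 0.05, and a selection of the genes described in the text is labelled. Most points lie below 0, around the medians of -0.83, -0.93 and -0.53, while Rpl15 stands near 0 in every set.

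Of all genes tested, 39.2%, 42.1% and 42.6% were higher in IP and 39.5%, 42.8% and 40.7% lower in hSyn, n_ZFP_a_Rpl and n_ZFP_n_Rpl. Mitochondrial ribosomal protein and biogenesis genes stood mostly higher in IP. TOP and translation partner genes stood on both sides, in n_ZFP_n_Rpl at counts near these shares. Of 77 mitochondrial ribosomal protein genes, which serve a separate ribosome, 61, 47 and 72 were higher in IP and 2, 17 and 1 lower in hSyn, n_ZFP_a_Rpl and n_ZFP_n_Rpl, with medians of 0.24, 0.23 and 0.43. Of 27 ribosome biogenesis genes, 24, 22 and 24 were higher and 0, 3 and 0 lower, with medians of 0.28, 0.26 and 0.42. Among 22 TOP and translation partner genes, 4, 6 and 9 were higher and 12, 14 and 9 lower, with medians of -0.21, -0.14 and 0.04. In this last list Eef1a2, the elongation factor form of mature neurons and muscle, was higher by 0.55 ± 0.04, 0.48 ± 0.02 and 0.69 ± 0.03, and Pabpc1, the cytoplasmic poly(A)-binding protein, was lower by -0.69 ± 0.03 in n_ZFP_a_Rpl and -0.57 ± 0.03 in n_ZFP_n_Rpl. Of the 7 pseudogene-suffixed ribosomal protein symbols in the table, 5 were lower and 0 higher in each set, with medians of -0.94, -1.0 and -0.78. Microglia and oligodendrocyte markers were also lower in the IP libraries, the latter at 951 to 4541 CPM against 4024 to 7978 CPM in Input, and their part in the IP to Input difference of the ribosomal protein genes was not tested.

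The comparison of R6/2 with NCAR mice under the Delta control asks what the disease model does to this gene family. Few of the genes changed, and no common direction was seen across sets. In MG IP 2 genes rose and 1 fell of 76, against 17.4% and 16.2% of all genes tested. In hSyn IP 13 rose and 2 fell (25.4% and 25.5% of all genes, 51% in either direction), in n_ZFP_a_Rpl IP 1 rose and 4 fell (20.6% and 24.7%), and in n_ZFP_n_Rpl IP 1 rose and 10 fell (25.2% and 26.2%). In the Input libraries 7 rose and 3 fell in hSyn (22.5% and 21.6%), 10 rose and 4 fell in n_ZFP_a_Rpl (24.4% and 24.7%, 49.1% in either direction), and 14 rose and 1 fell of 75 tested in n_ZFP_n_Rpl (26.1% and 23.7%). In either direction 33.5% of all genes were called in MG IP and between 44.1% and 51.4% elsewhere. The family's median log2 difference was 0.09, 0.12, 0.03 and -0.03 in the MG, hSyn, n_ZFP_a_Rpl and n_ZFP_n_Rpl IP libraries and 0.06, 0.06 and 0.14 in the 3 Inputs, against medians over all genes between -0.00 and 0.04.

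The direction of these counts depended on the scaling. With library totals in place of TMM factors, the median of all genes moved up by 0.14 to 0.19, and 19 genes rose and 0 fell in MG IP, 31 and 1 in hSyn IP, 20 and 1 in n_ZFP_a_Rpl IP, and 23 and 2 in n_ZFP_n_Rpl IP. In Input the splits were 23 and 0, 37 and 0, and 46 and 1. The shares of all genes that rose or fell on that scale are not given, so these splits are not read as particular to the family. The family's medians on that scale were 0.23, 0.28, 0.19 and 0.15 in the IP libraries and 0.20, 0.24 and 0.29 in Input, and those of all genes were 0.17, 0.16, 0.17 and 0.18 and then 0.15, 0.20 and 0.18. Relative to all genes the family's median was therefore higher by at most 0.12 on either scale, and in n_ZFP_n_Rpl IP it was lower on both. Each change below is relative to the TMM scale.

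Over the 4 IP comparisons, 16 genes rose in at least 1 set, 12 fell in at least 1 and 48 passed in none. Rpl31 was the only gene of the family called in the same direction in 3 or more sets, and it fell in all 4. Between 16.2% and 26.2% of all genes fell in each set, and how many fell in 3 or more was not counted. The recurrence is therefore not given as particular to Rpl31. Rpl31, a large subunit protein at the end of the exit tunnel, stood at 9.38, 11.0, 10.6, 10 and 8.65 CPM in the hSyn ND pulldowns and at 6.55, 6.14 and 7.95 CPM in RD. In n_ZFP_n_Rpl IP it stood at 7.94, 7.74, 9.0 and 8.20 CPM in ND and at 6.60, 5.41, 5.65 and 5.94 CPM in RD. In n_ZFP_a_Rpl IP it stood at 5.20, 5.16, 4.90 and 6.44 CPM in ND and at 4.01, 3.95 and 4.14 CPM in RD. In these 3 sets every RD library was below every ND library. In MG IP the ND libraries held 7.38, 6.55, 5.71 and 5.47 CPM and the RD libraries 4.33, 4.55, 5.52 and 4.54 CPM, where the highest RD library was above the lowest ND library.

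On the log2 scale Rpl31 fell by 0.53 ± 0.11 in hSyn IP (adjusted p = 0.00078), by 0.43 ± 0.10 in n_ZFP_a_Rpl IP (0.0032), by 0.48 ± 0.09 in n_ZFP_n_Rpl IP (0.00042) and by 0.41 ± 0.13 in MG IP (0.021), with edgeR's quasi-likelihood test. The MG call was lost with library totals only and without ND library 1, ND library 2 or RD library 1, and the calls in the other 3 IP sets held under all alternatives run. Rpl31 fell in the Inputs too, by 0.35 ± 0.07 in n_ZFP_a_Rpl (adjusted p = 0.00061) and by 0.47 ± 0.10 in n_ZFP_n_Rpl (0.0009), while in hSyn Input the log2 difference was -0.23 ± 0.09 (0.051). The Rpl31 difference was therefore not shown to be particular to the pulldown: it was not among the genes whose RD difference passed as unequal between IP and Input in any set. Reads of Rpl31 may be split with its pseudogenes, the only one of which in the table, Rpl31-ps12, lay between 0 and 0.43 CPM in the IP libraries.

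Rps19, the small subunit protein most often mutated in Diamond-Blackfan anaemia, fell in R6/2 in n_ZFP_n_Rpl IP. The ND pulldowns held 20.4, 20.7, 23.3 and 24.4 CPM and the RD pulldowns 16.5, 16.0, 18.5 and 17.4 CPM, without overlap. The log2 fall was 0.38 ± 0.07 (adjusted p = 0.00036, edgeR). It also fell by 0.32 ± 0.06 in n_ZFP_a_Rpl Input and by 0.24 ± 0.07 in hSyn Input (adjusted p = 0.01), and both Input calls were lost with library totals only.

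**Figure D3:**
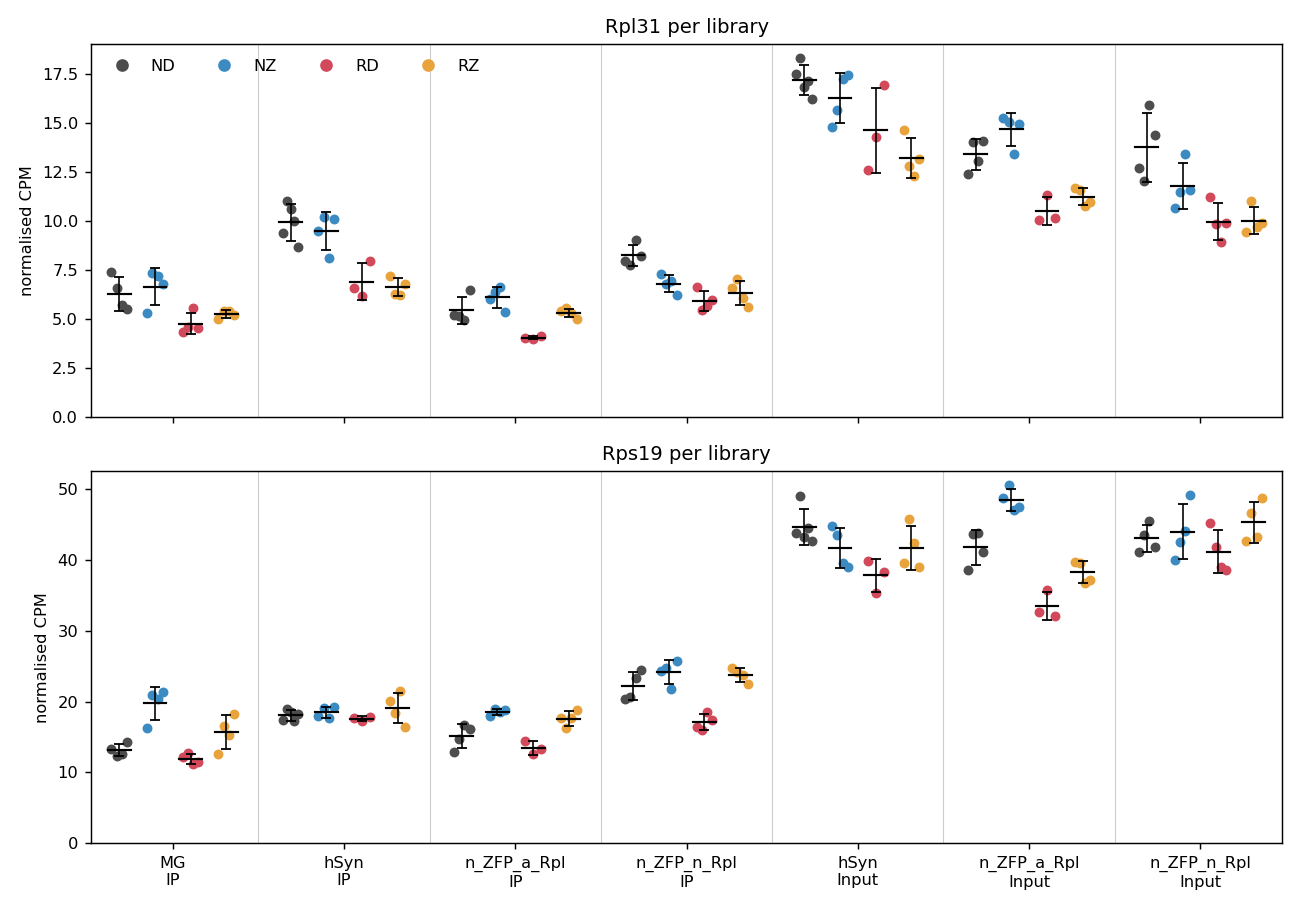
Levels of Rpl31 and Rps19 (CPM after TMM, vertical axes) in each library, by set, fraction and condition; points are libraries, bars group means and whiskers 1 SD. Rpl31 is lower in RD than in ND in every IP set, with overlap in MG only, and Rps19 in n_ZFP_n_Rpl IP lies at 16.0 to 18.5 CPM in RD and at 22.4 to 24.7 CPM in RZ.

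Rpl5, which binds 5S rRNA and restrains Mdm2 together with Rpl11, rose in the hSyn set and in n_ZFP_n_Rpl Input. The hSyn ND pulldowns held 7.79 to 10.4 CPM with a median of 8.72, and the RD pulldowns 12.5, 16.8 and 13.6 CPM. The log2 rise of Rpl5 was 0.67 ± 0.13 in hSyn IP (adjusted p = 0.00029) and 0.57 ± 0.11 in hSyn Input (0.00062, edgeR), and both calls held under all alternatives run. In n_ZFP_n_Rpl Rpl5 rose by 0.23 ± 0.08 in Input (adjusted p = 0.024) and had 0.25 ± 0.11 in IP (0.067). In MG IP the difference of Rpl5 was -0.02 ± 0.10. Rpl11 itself passed in no comparison of genotype or treatment, with 0.37 ± 0.21 in hSyn IP (adjusted p = 0.16).

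The other rises in hSyn IP included Rps15a (0.59 ± 0.16), Rps3 (0.43 ± 0.15), Rps20 (0.36 ± 0.10), Rpl13a (0.29 ± 0.06) and Rpl4 (0.17 ± 0.04). Leaving out RD library 3 ended the Rps15a and Rps3 calls, and leaving out ND library 3 ended the Rps3 call. Of 45 large subunit genes 6 rose and 1 fell there, and of 31 small subunit genes 7 rose and 1 fell. Markers of cell types moved with this comparison. In hSyn IP 8 of 8 astrocyte markers fell, from a sum of 5264 to 7787 CPM in ND to 2400 to 2933 CPM in RD, as did 7 of 8 microglia and 5 of 6 striatal projection neuron markers, none of them at 0. Their part in the ribosomal protein result was not tested. In n_ZFP_n_Rpl IP, the other neuron pulldown, the falls besides Rpl31 and Rps19 included Rpl35 (-0.32 ± 0.10), Rpl29 (-0.24 ± 0.06), Rpl32 (-0.24 ± 0.04) and Rpl41 (-0.19 ± 0.07). The calls for Rpl35 and Rpl41 were lost with library totals only. In that comparison 8 of 8 astrocyte markers fell, from a sum of 2985 to 3939 CPM in ND to 1452 to 2008 CPM in RD. So did 5 of 6 striatal projection neuron markers, from 2850 to 4777 CPM to 968 to 1301 CPM, and the part of either list was not tested. The difference between the 2 neuron sets passed for Rpl4 alone, at -0.27 ± 0.06 for n_ZFP_n_Rpl minus hSyn (adjusted p = 0.031), where 0.249% of all genes were lower. That call was lost under the scaling by library totals and without any of 7 libraries in turn, namely ND 4, RD 2 and RD 3 of hSyn IP and ND 1, RD 1, RD 3 and RD 4 of n_ZFP_n_Rpl IP. Between the 2 astrocyte sets 0 of 76 genes passed, where 0.00641% of all genes were called in either direction, and 0 passed with DESeq2. An unadjusted p under 0.05 was seen for 2 of the 76, with no share of all genes given.

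In the astrocyte pulldowns the RD changes were few. In n_ZFP_a_Rpl IP Rpl27a (-0.30 ± 0.10) and Rpl29 (-0.17 ± 0.05) fell, and Rpl39 rose by 0.26 ± 0.10. All 3 were lost without RD library 3. In MG IP Rps20 rose by 0.36 ± 0.13 (adjusted p = 0.047), from 8.82 to 10.8 CPM in ND to 11.7 to 13.6 CPM in RD, a call that 10 alternatives did not keep. The other MG rise was Rpl30 (0.66 ± 0.16), at a mean under 5 CPM. Striatal projection neuron markers fell in the same MG comparison, in 5 of 6 genes, from a sum of 3049 to 3266 CPM in ND to 782 to 1123 CPM in RD, and their part was not tested.

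The Input libraries show the whole extract, and in the main fit of each set more of the genes rose than fell. The rises were a smaller part of the family than of all genes in each Input, as given above. In hSyn Input the split was 6 rises and 5 falls with RLE factors and 7 and 7 with DESeq2. In n_ZFP_n_Rpl Input Rps21 (0.36 ± 0.07), Rps7 (0.34 ± 0.09), Rps20 (0.30 ± 0.07) and Rpl7a (0.28 ± 0.04) rose. In n_ZFP_a_Rpl Input Rpl23 (0.41 ± 0.08) and Rpl39 (0.33 ± 0.07) rose, and Rpl27a (-0.27 ± 0.07) fell. Rps6, the classic S6 kinase substrate, rose there by 0.28 ± 0.11 (adjusted p = 0.036), its only call in any genotype or treatment comparison, and lost it without ND library 1, 3 or 4 or RD library 2. Rps27, at means of 0.71 to 2.1 CPM and named after its values were seen, rose in all 3 Inputs, by 0.61 ± 0.22 in hSyn, 0.96 ± 0.19 in n_ZFP_a_Rpl and 0.75 ± 0.19 in n_ZFP_n_Rpl, and in n_ZFP_n_Rpl IP by 0.73 ± 0.23. In hSyn Input Rps15a (0.32 ± 0.10) and Rps7 (0.31 ± 0.12) rose and Rps24 fell by 0.23 ± 0.06.

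Whether the genotype difference in the pulldown departed from that in the extract was tested as IP minus Input of the RD to ND difference. In n_ZFP_n_Rpl 8 of 76 genes were lower and 0 higher, against 2.48% of all genes lower and 1.2% higher. The median over the family was -0.20 against -0.08 over all genes. The 8 were Rpl35 (-0.55 ± 0.13), Rps21 (-0.44 ± 0.12), Rpl37a (-0.40 ± 0.11), Rpl32 (-0.40 ± 0.08), Rpl41 (-0.40 ± 0.10), Rps19 (-0.37 ± 0.10), Rpl29 (-0.35 ± 0.08) and Rpl7a (-0.24 ± 0.07). IP and Input libraries of the same number deviated together in this set, and with the replicate number as a block 24 genes were lower. The 2.48% is from the fit without the block, and the share of all genes with it is not given. With library totals 2 were lower, and leaving out a library gave between 0 and 6. Without ND 4 or RD 1 of the Input, or ND 3, ND 4 or RD 4 of the IP, the count was 0.

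In hSyn 4 genes were higher and 0 lower in that test, against 0.869% of all genes higher. They included Rpl35a (0.71 ± 0.16), Rps28 (0.56 ± 0.12) and Rplp1 (0.47 ± 0.11, adjusted p = 0.021). The count was 0 without ND 4, ND 5, RD 1 or RD 2 of the Input or RD 2 or RD 3 of the IP. In n_ZFP_a_Rpl 0 of 76 passed with edgeR, where 1.86% of all genes were called, and 0 with DESeq2. Of the 76, 6 had an unadjusted p under 0.05, with no share of all genes given.

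Related gene groups changed in both directions in RD, where 33.5%, 51%, 45.3% and 51.4% of all genes were called in either direction in the MG, hSyn, n_ZFP_a_Rpl and n_ZFP_n_Rpl pulldowns. Of 77 mitochondrial ribosomal protein genes, 12, 8, 3 and 16 rose and 1, 9, 5 and 8 fell in that order. Of 27 ribosome biogenesis genes 7, 7, 9 and 5 rose and 3, 5, 3 and 7 fell. Ubtf, the RNA polymerase I activator that drives rRNA genes, fell by 0.67 ± 0.07, 0.96 ± 0.08, 0.51 ± 0.05 and 0.98 ± 0.06. Of 22 TOP and translation partner genes 6, 4, 5 and 4 rose and 2, 1, 3 and 3 fell. Eef1a1, the general elongation factor and itself a TOP mRNA, rose by 0.34 ± 0.07, 0.43 ± 0.05, 0.23 ± 0.05 and 0.21 ± 0.05. Of 19 mTOR and eIF4E regulators 1, 2, 1 and 3 rose and 2, 5, 4 and 8 fell.

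The comparison of ZFP with Delta asks what the repressor does in each genotype. Rplp1 fell with ZFP in all 8 comparisons of the 2 sets whose names begin with n_ZFP, in both fractions and both genotypes. In n_ZFP_n_Rpl IP it stood at 91.5, 84.6, 86.6 and 87.5 CPM in RD and at 36.9, 35.2, 31.8 and 29.3 CPM in RZ. In NCAR mice of that set it stood at 78.5, 80.8, 82.4 and 88.0 CPM with Delta and at 36.9, 37.0, 31.2 and 32.3 CPM with ZFP. Every ZFP library held less Rplp1 than every Delta library in both genotypes. In n_ZFP_a_Rpl IP the Delta libraries held 60.4, 63.1 and 58.3 CPM in R6/2 and 63.5, 59.8, 66.8 and 73.3 CPM in NCAR. The ZFP libraries of that set held 25.4, 24.4, 28.3 and 29.2 CPM in R6/2 and 32.1, 27.2, 28.5 and 28.9 CPM in NCAR, again without overlap.

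The Input libraries showed the same order. In n_ZFP_a_Rpl Input Rplp1 stood at 235, 242 and 225 CPM in RD and at 113, 102, 122 and 124 CPM in RZ. In n_ZFP_n_Rpl Input it stood at 238, 236, 228 and 250 CPM in RD and at 167, 141, 151 and 148 CPM in RZ. The NCAR Inputs with ZFP held 114 to 138 CPM in n_ZFP_a_Rpl and 124 to 151 CPM in n_ZFP_n_Rpl, below all NCAR Inputs with Delta, whose lowest were 217 and 196 CPM.

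On the log2 scale the fall of Rplp1 was 1.39 ± 0.07 in R6/2 (adjusted p = 4.8e-09) and 1.26 ± 0.07 in NCAR (1.9e-08) in n_ZFP_n_Rpl IP, with edgeR's quasi-likelihood test. It was 1.18 ± 0.08 (4.4e-08) and 1.18 ± 0.07 (3.8e-08) in n_ZFP_a_Rpl IP. In Input it was 1.02 ± 0.07 (4.8e-08) and 0.87 ± 0.07 (2.7e-06) in n_ZFP_a_Rpl, and 0.65 ± 0.07 (0.00024) and 0.73 ± 0.07 (0.00017) in n_ZFP_n_Rpl. These 8 calls held under every alternative run, each library left out in turn included. The ZFP difference of Rplp1 did not pass as unequal between genotypes, at -0.00 ± 0.10 in n_ZFP_a_Rpl IP and -0.13 ± 0.10 in n_ZFP_n_Rpl IP (adjusted p = 0.44). In each of the 8 comparisons Rplp1 was the only one of the ribosomal protein genes that fell.

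In the other 2 sets the ZFP difference of Rplp1 did not pass: 0.01 ± 0.10 in R6/2 and 0.08 ± 0.10 in NCAR in MG IP, and -0.05 ± 0.09 and -0.09 ± 0.08 in hSyn IP. In hSyn Input the NZ libraries, at 185 to 201 CPM, all lay below the ND libraries, at 215 to 249 CPM, with a log2 difference of -0.28 ± 0.06 and an adjusted p of 0.36. The difference between sets was itself tested in IP and not in Input. It was -1.35 ± 0.12 in R6/2 (adjusted p = 8.1e-09) and -1.17 ± 0.11 in NCAR (3.4e-08) for n_ZFP_n_Rpl minus hSyn, and -1.22 ± 0.13 (7e-07) and -1.21 ± 0.13 (8.3e-07) for n_ZFP_a_Rpl minus MG. RefSeq names 1 pseudogene of Rplp1.

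**Figure D4:**
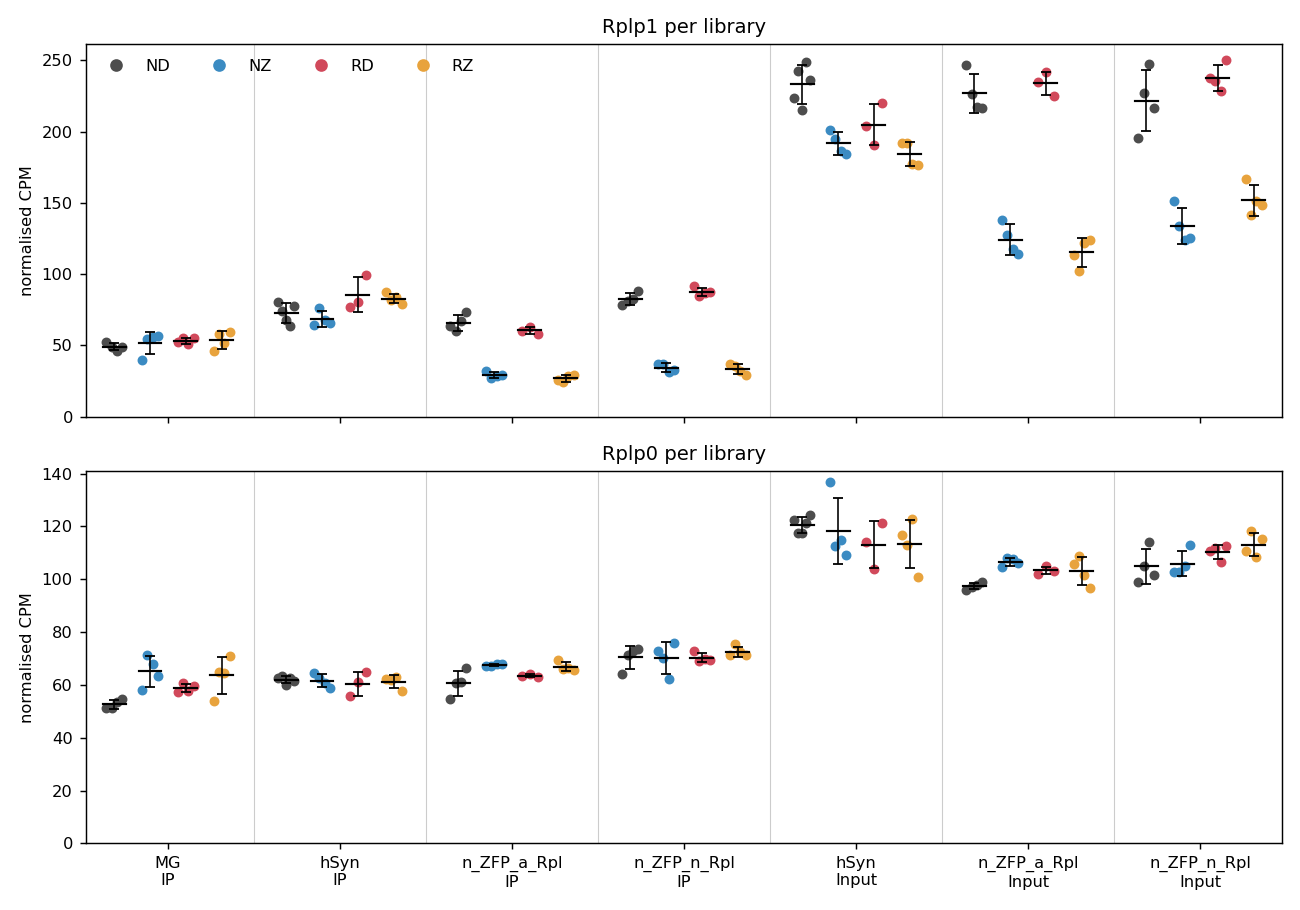
Levels of Rplp1 and Rplp0 (CPM after TMM, vertical axes) in each library, by set, fraction and condition; points are libraries, bars group means and whiskers 1 SD. In n_ZFP_a_Rpl and n_ZFP_n_Rpl the NZ and RZ libraries of Rplp1 lie below the ND and RD libraries in IP and in Input, and Rplp0 shows no such step.

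The partners of Rplp1 in the stalk did not fall with it. Rplp0 ranged from 62.9 to 64.0 CPM in n_ZFP_a_Rpl RD pulldowns and from 65.8 to 69.5 CPM in RZ, a log2 difference of 0.08 ± 0.05 that did not pass. Its difference in NCAR was 0.15 ± 0.05 (adjusted p = 0.093, edgeR), and in n_ZFP_n_Rpl IP the differences were 0.04 ± 0.06 and -0.00 ± 0.06. Rplp2 rose by 0.31 ± 0.10 in R6/2 in n_ZFP_a_Rpl IP (adjusted p = 0.019). In n_ZFP_n_Rpl IP Rplp2 had 0.19 ± 0.10 in R6/2 (0.21) and -0.22 ± 0.10 in NCAR (0.17).

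Apart from Rplp1, the changes with ZFP in R6/2 pulldowns of the n_ZFP sets were rises. In n_ZFP_a_Rpl IP 18 of 76 genes rose and 1 fell, against 19.1% and 14.7% of all genes (33.8% in either direction), so the count of rises was near the background and that of falls below it. Of the large subunit genes 10 rose, and of the small subunit genes 8. In n_ZFP_n_Rpl IP 10 rose and 1 fell, against 9.47% and 7.95% of all genes. The medians over the family were 0.15 and 0.10, and those over all genes -0.00 and 0.00. With library totals 10 and 6 genes were called in place of 19 and 11. In n_ZFP_n_Rpl IP the count was 7 without RD 2, 6 without RD 4, 5 without RZ 2 and 6 without RZ 4.

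Markers moved with these comparisons too, and their part was not tested. In n_ZFP_a_Rpl IP 6 of 6 striatal projection neuron markers rose with ZFP, from a sum of 719 to 967 CPM in RD to 1963 to 2235 CPM in RZ. There 4 of 8 neuron markers rose, from 4225 to 4528 CPM to 5114 to 5404 CPM, and 7 of 8 astrocyte markers fell, from 13826 to 15038 CPM to 11239 to 12349 CPM. In n_ZFP_n_Rpl IP 5 of 6 striatal projection neuron markers rose, from 968 to 1301 CPM to 1561 to 2505 CPM, and 2 of 8 astrocyte markers, whose sum was 1452 to 2008 CPM in RD and 1922 to 2925 CPM in RZ.

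Rps25, a small subunit protein needed for initiation at some viral internal entry sites, stood at 11.4, 11.8 and 11.3 CPM in RD and at 15.9, 13.4, 15.1 and 16.0 CPM in RZ of n_ZFP_a_Rpl IP. Its log2 rise was 0.40 ± 0.08 (adjusted p = 0.00093, edgeR), and in n_ZFP_n_Rpl IP it was 0.30 ± 0.08. Rps19 rose by 0.39 ± 0.08 (0.0017) in n_ZFP_a_Rpl IP and by 0.48 ± 0.07 (0.00039) in n_ZFP_n_Rpl IP. There the RZ libraries of Rps19 held 24.7, 24.2, 23.7 and 22.4 CPM, above all 4 RD libraries and within or just above the ND range. Rpl4 stood at 225, 213 and 205 CPM in RD and at 248, 244, 242 and 257 CPM in RZ of n_ZFP_a_Rpl IP, a rise of 0.21 ± 0.04 (0.0011), and rose by 0.18 ± 0.05 in n_ZFP_n_Rpl IP. In both sets the groups did not overlap for these genes where the libraries are listed.

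Rpl31 rose by 0.39 ± 0.10 (adjusted p = 0.0081) with ZFP in n_ZFP_a_Rpl IP, where the RZ libraries held 5.38, 5.52, 5.27 and 4.98 CPM. In the other pulldowns its ZFP difference in R6/2 did not pass, at 0.10 ± 0.09 in n_ZFP_n_Rpl, 0.14 ± 0.13 in MG and -0.06 ± 0.11 in hSyn. Rpl35 (0.45 ± 0.10, adjusted p = 0.0063), Rpl41 (0.37 ± 0.07, 0.0017) and Rpl32 (0.29 ± 0.04) rose in n_ZFP_n_Rpl IP. For Rpl41 the RD libraries held 88.9 to 102.6 CPM and the RZ libraries 118.3 to 126.8 CPM, without overlap. The RD to ND and RZ to RD comparisons share the RD libraries, so their values for a gene are set side by side here and no overlap between them is given as a result.

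In the matching Inputs 1 gene rose and 1 fell in n_ZFP_a_Rpl (11.1% and 5.03% of all genes), and 0 rose and 1 fell in n_ZFP_n_Rpl (2.49% and 0.828%), the fall being Rplp1 in each. In MG IP 0 of 76 passed in R6/2, where 0.0782% of all genes passed, 0.013% higher and 0.0652% lower. Of the 76, 30 had an unadjusted p under 0.05 and 5 passed with DESeq2. The shares of all genes by these other measures are not given, so 30 and 5 cannot be set against 0.0782%. Without RZ library 1 the MG count was 29, with the share of all genes in that fit not given. That library had 9.61 CPM of Rps6 and 1.03 CPM of Rpl10, apart from its group. In hSyn 0 of 76 passed in IP (0.0391% of all genes, 0.00652% higher and 0.0326% lower) and 0 in Input (0%), and DESeq2 gave 0 in both. At an unadjusted p under 0.05 there were 4 in IP and 1 in Input, with no share of all genes given.

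Among related genes in n_ZFP_a_Rpl IP, 10 mitochondrial ribosomal protein genes of 77 rose and 3 fell with ZFP in R6/2, 8 TOP and translation partner genes of 22 rose and 0 fell, and 6 ribosome biogenesis genes of 27 rose and 1 fell. Ubtf rose there by 0.42 ± 0.05. In n_ZFP_n_Rpl IP the counts were 4 and 2, 0 and 1, and 4 and 0. These stand against 19.1% of all genes higher and 14.7% lower in n_ZFP_a_Rpl IP, and 9.47% and 7.95% in n_ZFP_n_Rpl IP.

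In NCAR mice few genes were called outside MG. In n_ZFP_a_Rpl IP 2 rose and 1 fell (1.2% and 0.872% of all genes, 2.07% in either direction), in its Input 3 rose and 1 fell (0.475% and 0.482%), and in n_ZFP_n_Rpl 1 fell in IP and 1 in Input (4.5% and 2.33% of all genes lower). The fall was Rplp1 in each. The family's median in n_ZFP_a_Rpl was 0.17 in IP and 0.10 in Input, against -0.01 and -0.00 over all genes. In n_ZFP_a_Rpl IP 13 rose and 1 fell with DESeq2. With edgeR 11 genes passed there without ND 4, and 1 without ND 1 or without NZ 4. In hSyn 0 passed in IP (0.0261% of all genes) and 0 in Input (0.00622%), and DESeq2 gave 0 and 1. At an unadjusted p under 0.05 there were 6 in IP and 9 in Input, with no share of all genes given.

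In MG IP 19 of 76 genes rose with ZFP in NCAR and 0 fell, against 3.68% and 3.36% of all genes (7.05% in either direction). The family's median was 0.24 and that of all genes 0.02. The largest rises at 5 CPM or more were Rps14 (0.93 ± 0.20, adjusted p = 0.027), Rpl18 (0.60 ± 0.15) and Rplp2 (0.59 ± 0.14, 0.031), with Rps19 at 0.59 ± 0.11 (0.018). Rps19 held 12.4 to 14.3 CPM in ND and 16.2 to 21.4 CPM in NZ, without overlap. Rplp0 rose by 0.31 ± 0.08 (0.035), from 51.2 to 54.8 CPM in ND to 57.9 to 71.3 CPM in NZ, and Rpl41 by 0.42 ± 0.12 (0.047). Of the small subunit genes 12 rose and of the large subunit genes 7.

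These MG calls rested on few libraries, and the shares of all genes called without each library are not given. The count was 0 without ND 1, ND 2, NZ 3 or NZ 5, 1 without ND 3, 3 without ND 4 and 10 without NZ 4, and it was 29 without NZ 2, which lay apart from its group for Rplp1 (40.0 CPM) and Rpl41 (43.0 CPM). Striatal projection neuron markers summed to 3049 to 3266 CPM in ND and 1755 to 2670 CPM in NZ, with 2 of 6 lower, and neuron markers to 5632 to 6289 CPM and 4824 to 5285 CPM, with 2 of 8 lower. The share of assigned counts in Rn45s, the ribosomal RNA precursor, was 0.105% to 0.314% in ND and 0.0306% to 0.0881% in NZ. Of 7 oligodendrocyte markers 0 were called in the same comparison, with a median of 0.68 and sums of 1672 to 2804 CPM in ND and 1768 to 4357 CPM in NZ, and the part of these lists and of Rn45s in the result was not tested.

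Tests of the ZFP difference between genotypes gave 2 genes higher in n_ZFP_a_Rpl IP, Rps10 (0.49 ± 0.15, adjusted p = 0.038) and Rps29 (1.39 ± 0.41, 0.029), and 0 lower, against 11.4% and 5.07% of all genes. In n_ZFP_n_Rpl IP they were Rpl32 (0.21 ± 0.06, 0.034) and Rps19 (0.36 ± 0.10, 0.027), against 8.47%. Leaving out a library gave between 0 and 2 in n_ZFP_a_Rpl, with 0 without ND 4, NZ 4, RD 1 or RD 2. It gave between 0 and 4 in n_ZFP_n_Rpl, with 4 without ND 1 and 0 without ND 3, ND 4, NZ 3 or RZ 2. In MG and hSyn IP 0 passed with edgeR or DESeq2, with 6 and 2 at an unadjusted p under 0.05, and 0% of all genes were called.

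Between the astrocyte sets the ZFP difference in R6/2 was higher in n_ZFP_a_Rpl than in MG for 6 genes (8.07% of all genes) and lower for Rplp1 (4.94%). The 6 included Rps26 (0.96 ± 0.26), Rpl23 (0.81 ± 0.24), Rpl29 (0.36 ± 0.08) and Rpl4 (0.35 ± 0.07), and without MG RZ 1 the count of 7 became 19. In NCAR 4 were higher and 3 lower (9.72% and 4.14% of all genes), among them Rps14 at -0.78 ± 0.23. Between the neuron sets in R6/2, 3 genes were higher in n_ZFP_n_Rpl than in hSyn (2.64% of all genes), among them Rpl4 (0.26 ± 0.06) and Rps19 (0.36 ± 0.10), and Rplp1 was lower (1.16%). In NCAR Rplp1 alone differed (0.613% of all genes lower).

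A few genes stood at separate levels within groups, a low level and, past a wide gap, higher levels, in a way that cut across the conditions. They were chosen after their values were seen. The SD of the log2 level within groups was above 1 in 4 of the 72 ribosomal protein genes with a mean of at least 1 CPM (5.56%), against 75 of 13683 genes in all (0.548%), while the median SD was 0.16 and 0.13. The 4 were Rps2 (2.19), Rps3a1 (1.91), Rpl3 (1.79) and Rps18 (1.72). Rps2 lies at the mRNA entry of the small subunit, Rps18 in its head and Rps3a1 at the exit side, and Rpl3 reaches the peptidyl transferase centre of the large subunit.

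In IP libraries Rps2 was at 0.582 to 1.53 CPM in 21 libraries and at 11.9 to 39.2 CPM in 42, and in Input at 0.849 to 2.5 CPM in 20 and at 30.3 to 88.3 CPM in 27. Rps3a1 was at 0.481 to 0.913 CPM in 15 IP libraries and at 10.2 to 43.9 CPM in 48. Rpl3 was at 0.637 to 1.32 CPM in 18 and at 13.9 to 43.0 CPM in 45, and Rps18 at 0.139 to 0.595 CPM in 22 and at 2.56 to 13.6 CPM in 41. The gap above the low level was thus several-fold for each gene, and libraries on both sides of it occurred in the same groups. The libraries above the gap were themselves not of 1 level. In hSyn Input Rps2 stood at 1.4 to 2.5 CPM, at 41.4 to 49.3 CPM and at 83.3 to 88.3 CPM, and Rps3a1 at 1.9 to 2.7 CPM, at 35.9 to 42.6 CPM and at 80.4 to 87.6 CPM. In n_ZFP_n_Rpl IP Rps2 stood at 0.6 to 1.2 CPM, at 16.7 to 21.8 CPM and at 30.6 to 33.3 CPM.

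In the n_ZFP_n_Rpl pulldowns, for example, Rps2 stood at 16.8, 33.3, 0.602 and 30.6 CPM in ND, 0.842, 18.7, 18.0 and 0.662 CPM in NZ, and 17.0, 17.1, 0.687 and 1.16 CPM in RD. In RZ all 4 libraries were above the gap, at 17.5, 21.8, 18.3 and 18.0 CPM. The Input libraries of the same numbers stood at 30.3, 68.8, 1.02 and 64.2 CPM in ND, 0.849, 36.2, 31.9 and 1.53 CPM in NZ, and 32.8, 30.3, 1.60 and 1.36 CPM in RD. An IP library and the Input library of the same condition and number thus lay on the same side. This held for all 4 genes in 15 of 15 such pairs in n_ZFP_a_Rpl and in 16 of 16 in n_ZFP_n_Rpl. In hSyn it held in 14 of 14 for Rps3a1 and in 12 of 14 for each of Rps2, Rpl3 and Rps18.

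Rps2 and Rps18, both on chromosome 17, were on the same side in 105 of 110 libraries. Rps3a1 is on chromosome 3 and Rpl3 on chromosome 15, and the other pairs of genes were on the same side in 62 to 71 of 110. In the 37 comparisons Rps2, Rpl3 and Rps18 were called 0 times and Rps3a1 1 time, lower in n_ZFP_a_Rpl IP than in Input (-1.06 ± 0.33, adjusted p = 0.0055, edgeR), with standard errors up to 2.20, 1.85, 1.91 and 2.01. No difference between conditions could thus be shown for these 4 genes at the spread within groups. What sets the level was not tested.

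**Figure D5:**
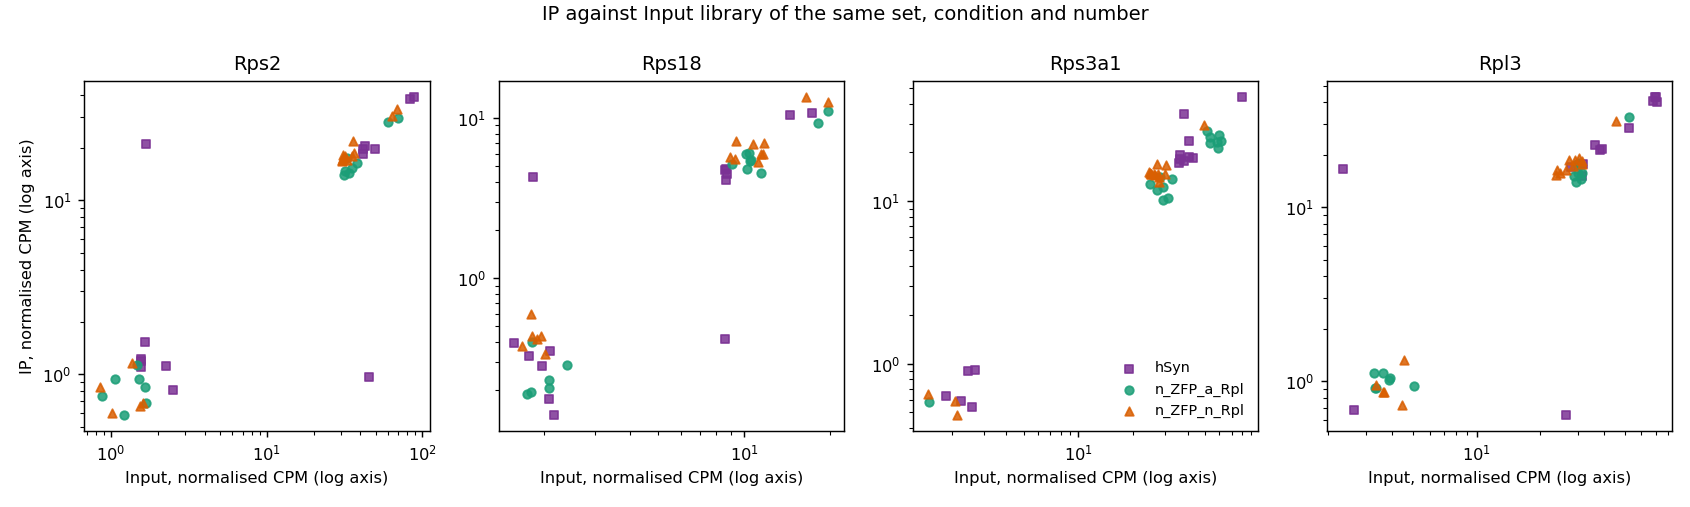
Level in the IP library (vertical, CPM, log axis) against that in the Input library of the same set, condition and number (horizontal, CPM, log axis) for Rps2, Rps18, Rps3a1 and Rpl3; colours and markers give the set. Points fall below or above a gap in every panel, with a further spread of levels above it, and all pairs of n_ZFP_a_Rpl and n_ZFP_n_Rpl lie on the same side in IP and Input.

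Some of the family members followed in every comparison for their known roles passed in none of the comparisons of condition. Rpl10, which joins the large subunit last, ranged from 0.682 to 2.11 CPM over the IP libraries and passed in no genotype or treatment comparison. Rps27a, made as a fusion with ubiquitin, ranged from 0.538 to 2.60 CPM in IP and also passed in none. Rpsa, known also as the laminin receptor precursor, had standard errors of 0.34 to 0.51 and passed in none, but was lower in IP than in Input in all 3 sets, by -0.93 ± 0.20, -1.15 ± 0.23 and -0.76 ± 0.21. Rps6 was lower in IP by -0.99 ± 0.05, -0.77 ± 0.06 and -0.81 ± 0.06. At 1 to 2 CPM, counting noise is a larger part of the spread of Rpl10, Rpl11 and Rps27a than of genes such as Rpl4. A difference that did not pass for them was not shown to be absent. Rps27, at a mean of 1.07 CPM, did pass in all 3 Inputs, and the part of depth was not tested.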

How the data were processed

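Messenger RNA was measured by RNA sequencing in 110 libraries, as RiboTag pulldowns (IP) and Input extracts. Reads were aligned with STAR to mm10 and counted with HTSeq per the submitters' processing notes, with versions, options and strand setting not given in the sources used here. The authors deposited raw read counts per gene, and no normalised values were used. Of 24060 symbols, 4 with a duplicated symbol were left out. All genes were fitted with edgeR 4.0.16 in R 4.3.3 (TMM factors, filterByExpr with a minimum count of 10 and a minimum total of 15, robust quasi-likelihood), with Benjamini-Hochberg adjustment over all genes tested and a threshold of 0.05. Each set and fraction was fitted on its own, and IP and Input of a set together for differences between fractions. Rises and falls name genes past this threshold, ± after a log2 value is its standard error, and 75 of the 76 genes were tested in all 37 comparisons. Shares of all genes are those of the main edgeR fit at the adjusted threshold, and none are given for unadjusted p-values or alternatives. Depth limits genes near 1 CPM most. The p-values measure the spread between libraries, which may be technical.

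Named genes were Rplp0, Rpsa, Rps6, Rpl3, Rpl10, Rpl11, Rps27a and Rpl41 throughout, up to 3 with the largest rises and 3 with the largest falls per comparison at a mean of at least 5 CPM, and genes called in the same direction in at least 3 IP sets; others were named after their values were seen. Some genes are not reported here by name. The members and lists were chosen with earlier results of these data known. Alternatives were RLE factors, no filter, a replicate block, DESeq2 1.42.0 and each library left out, with library totals only added after the data were seen. Deviations of IP and Input libraries with the same condition and number correlated in 15 of 15 pairs of n_ZFP_a_Rpl (r from 0.296 to 0.500) and in 16 of 16 of n_ZFP_n_Rpl (0.367 to 0.595), above 0.1 in each, but above 0.1 in only 11 of 14 pairs of hSyn. The fits were tested on simulated counts with known changes. These counts were drawn independently for each library. The correlation of IP with Input and the separate levels within groups were therefore not covered.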

Additional observations from a re-analysis of the deposited data

Results flagged for a closer look

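In 264 tests, which covered 11 measures in 24 groups of 4 or 5 libraries, 26 values stood apart from the rest of their group by Dixon's criterion, where chance gives about 1 in 20. The summed share was lowest at 0.187% in n_ZFP_n_Rpl IP NZ 3. Of the genes with separate levels, Rpl3 stood apart at 32.9 CPM in MG IP RD 1, 28.8 in n_ZFP_a_Rpl Input ND 4, 15 in n_ZFP_a_Rpl IP ND 4, 3.60 and 0.870 in n_ZFP_n_Rpl Input and IP RD 2, and 3.64 and 0.861 in n_ZFP_n_Rpl Input and IP RZ 1. In the n_ZFP sets the Input and IP library of the same number stood apart together. Rpl10 stood apart at 1.03 CPM in MG IP RZ 1, 1.13 in hSyn IP ND 1 and 3.24 in hSyn Input NZ 1, and Rpl11 at 1.67 in hSyn IP NZ 3 and 3.87 in n_ZFP_a_Rpl Input NZ 1. Rps6 did so at 9.61 CPM in MG IP RZ 1, 5.99 in hSyn IP NZ 2, 19.9 in hSyn Input RZ 4 and 6.70 in n_ZFP_n_Rpl Input NZ 2. Rpl41 did so at 43.0 CPM in MG IP NZ 2, 147 in n_ZFP_a_Rpl Input ND 1 and 70.7 in n_ZFP_a_Rpl IP NZ 4, and Rpsa at 29.3 in MG IP RZ 3 and 11.5 in n_ZFP_n_Rpl IP ND 1. The others were Rpl31 at 13.4 CPM in n_ZFP_a_Rpl Input NZ 3, Rplp0 at 69.5 in n_ZFP_a_Rpl IP RZ 1, Rplp1 at 40.0 in MG IP NZ 2 and Rps27a at 1.13 in n_ZFP_n_Rpl IP RZ 1.

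The same contrast differed between groups in 9 tests of the difference itself. The ZFP difference was unequal between genotypes for 2 genes in n_ZFP_a_Rpl IP and for 2 in n_ZFP_n_Rpl IP. The genotype difference was unequal between IP and Input for 4 genes in hSyn and for 8 in n_ZFP_n_Rpl. Between the astrocyte sets the ZFP difference was unequal for 7 genes in R6/2 and for 7 in NCAR. Between the neuron sets the genotype difference was unequal for 1 gene, and the ZFP difference for 4 in R6/2 and for 1 in NCAR.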

How the results depend on the processing

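Over 2273 alternative values for the named genes, 1961 kept the call, 312 lost it and 0 reversed. Library totals only changed the counts of genes called in RD against ND most: 19 in MG IP, 32 in hSyn IP, 23 in hSyn Input, 21 in n_ZFP_a_Rpl IP, 37 in its Input, 25 in n_ZFP_n_Rpl IP and 47 in its Input, with the median of all genes shifted up as given above. On that scaling RZ against RD gave 10 in n_ZFP_a_Rpl IP, 5 in its Input, 6 in n_ZFP_n_Rpl IP and 2 in its Input, NZ against ND 2 in n_ZFP_n_Rpl IP, the genotype interactions 1 and 0, IP minus Input 1 in hSyn and 2 in n_ZFP_n_Rpl, and the set differences 11 (astrocyte, NCAR), 0 (neuron, RD) and 1 (neuron, R6/2 with ZFP).

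DESeq2 gave 5 in MG RZ against RD, 1 in hSyn Input NZ, 14 in n_ZFP_a_Rpl IP NZ, 2 in n_ZFP_n_Rpl IP NZ and 2 in its Input RZ, interactions of 1 and 5, 4 for IP minus Input in n_ZFP_n_Rpl, and 11 (astrocyte, NCAR) and 2 (neuron, RD). RLE factors gave 5 in n_ZFP_a_Rpl IP NZ and 2 for IP minus Input in n_ZFP_n_Rpl. No filter gave 1 and 1 for the interactions and 0 and 5 for IP minus Input in hSyn and n_ZFP_n_Rpl. The replicate block, where within a fraction the libraries share only a number, gave 0 in MG NZ, 6 in hSyn Input RD, 1 in the n_ZFP_a_Rpl interaction, and 2, 0 and 2 for the astrocyte NCAR, neuron RD and neuron R6/2 ZFP differences. With IP and Input paired it gave 24 for n_ZFP_n_Rpl, as stated, and 72, 75 and 71 genes differing between IP and Input in hSyn, n_ZFP_a_Rpl and n_ZFP_n_Rpl. The hSyn value rests on pairs by number, and some ND numbers did not match at the genes with separate levels, as described below.

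Leaving out each library in turn gave RD counts of 1 to 3 in MG IP, 10 to 15 and 6 to 11 in hSyn IP and Input, 2 to 6 and 9 to 16 in n_ZFP_a_Rpl, and 9 to 15 and 9 to 18 in n_ZFP_n_Rpl, the 9 without ND 4 of that Input and the 9 without RD 2 of n_ZFP_a_Rpl Input. For RZ they were 0 to 29 in MG, 15 to 17 and 1 to 3 in n_ZFP_a_Rpl and 5 to 10 and 1 to 2 in n_ZFP_n_Rpl; for NZ, 0 to 29 in MG, 1 to 11 and 1 to 3 in n_ZFP_a_Rpl, the 11 without IP ND 4, and 1 to 2 in both fractions of n_ZFP_n_Rpl. Interactions ranged over 0 to 2 and 0 to 4, IP minus Input over 0 to 4, 0 to 1 and 0 to 6, and IP against Input over 69 to 70, 70 to 73 and 64 to 66. The set differences ranged over 4 to 19 and 3 to 17 (astrocyte, R6/2 and NCAR), 0 to 1, 2 to 4 and 1 to 1 (neuron, RD, R6/2 and NCAR). The causes were not tested.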

Other observations

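Rpl21 and Rpsa had the next largest spread within groups, with SDs of 0.71 and 0.62 on the log2 scale. In the hSyn ND libraries, IP numbers 2, 3 and 4 lay on the same side as the Input of their own number in 1, 2 and 3 of the 4 genes with separate levels. IP numbers 1, 2, 3 and 4 lay on the same side as Input numbers 2, 3, 4 and 5 in 4 of 4 genes each. In NZ, numbers 1, 2 and 3 agreed in 4 of 4 genes, and IP number 5 lay on the same side as Input number 4 in 4 of 4. No library was reassigned in any comparison.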
